A study of Mus musculus with 19 samples.

Results

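The 10 genes described here are transcribed in response to Wnt signalling: Axin2, Nkd1, Rnf43, Znrf3, Notum, Sp5, Tbx3, Tcf7, Lgr5 and Glul. They were chosen by gene symbol, and all 10 were among the 55421 genes of the deposited count table. The study measured RNA in livers of mice, all adult males of the C57BL/6 strain: mutants, with a transgene for the AP-1 pair c-Jun~Fra2, and littermates as controls. Doxycycline represses the transgene. Mutants and controls were all taken off it at weaning, at 3 weeks of age. Groups were set at 2 months after this withdrawal (3 mutants, 6 controls) and at 9 months after it (3 mutants, 3 controls), and months in the text count from it. From each 9-month mutant, the study took liver with no tumour visible to the eye, called tumour-free here, as well as tumour tissue. For mutant 1 there were 2 tumour libraries and for mutants 2 and 3 a single one each, so 19 libraries represent 15 animals. Counts of the 2 tumours from mutant 1 were added together for all tests, and n is a number of animals. The sources used here name neither the promoter of the transgene nor the alleles of the controls.

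Wnt proteins bind Frizzled receptors with Lrp5 or Lrp6 and stop the destruction of beta-catenin, which then enters the nucleus and acts with factors of the TCF/LEF family. Many direct targets feed back on the pathway: Axin2, Nkd1, Rnf43, Znrf3 and Notum each dampen it at a different step. In the liver, Wnt ligands and the R-spondin Rspo3 from endothelial cells around the central vein set the pericentral programme of hepatocytes, of which glutamine synthetase, the product of Glul, is the classical marker.

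Of the 10 genes, Axin2, Rnf43, Znrf3, Tcf7 and Notum lie on chromosome 11, as 5 separate loci. In GENCODE M21 on GRCm38, Axin2 spans chr11:108920349-108950783 on the plus strand, Sp5 chr2:70474923-70477729 on the plus strand and Glul chr1:153899944-153909723 on the plus strand. The RefSeq promoter table for GRCm38.p6 held 8 promoters for 6 of the genes (Glul, Sp5, Nkd1, Tcf7, Rnf43 and Axin2), each covering 250 bases before to 50 after a start site. Znrf3, Lgr5, Tbx3 and Notum had no entry. The promoters of Sp5, Axin2 and Glul are shown because these genes gave the largest fall, the larger of the 2 rises called at 2 months and the most abundant transcript. Each is 5′ to 3′ on the gene's strand, and capitals mark a TCF/LEF word.
Sp5, chr2:70474673-70474972, plus strand: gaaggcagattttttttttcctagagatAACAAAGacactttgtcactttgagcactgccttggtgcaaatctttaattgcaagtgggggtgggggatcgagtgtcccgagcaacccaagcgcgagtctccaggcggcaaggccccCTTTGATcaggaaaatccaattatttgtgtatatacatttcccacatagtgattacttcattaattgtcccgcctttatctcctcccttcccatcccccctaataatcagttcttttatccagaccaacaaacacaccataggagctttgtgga
Axin2, chr11:108920099-108920398, plus strand: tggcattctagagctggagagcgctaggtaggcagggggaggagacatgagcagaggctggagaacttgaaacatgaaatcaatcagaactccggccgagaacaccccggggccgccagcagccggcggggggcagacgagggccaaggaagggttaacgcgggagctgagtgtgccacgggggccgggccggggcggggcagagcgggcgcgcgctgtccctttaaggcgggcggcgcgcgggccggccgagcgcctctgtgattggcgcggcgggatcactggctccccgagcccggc
Glul, chr1:153899679-153899978, plus strand: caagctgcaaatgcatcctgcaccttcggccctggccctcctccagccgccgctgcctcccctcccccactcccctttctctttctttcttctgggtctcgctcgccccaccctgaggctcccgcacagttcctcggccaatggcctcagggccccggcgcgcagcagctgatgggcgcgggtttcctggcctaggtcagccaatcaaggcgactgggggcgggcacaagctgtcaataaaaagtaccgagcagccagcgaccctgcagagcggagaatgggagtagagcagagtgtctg
The words searched on both strands were CTTTGAA with its variant CTTTGAT, and CTTTGTA with its variant CTTTGTT. The Sp5 promoter held 2 of them, CTTTGTT on the minus strand at -222 from the start site (printed as its reverse complement) and CTTTGAT on the plus strand at -104. It was the only 1 of the 8 promoters with a match, against 16.9% of 32851 mouse promoters of this length. The AP-1 word TGACTCA, or its reverse complement TGAGTCA, was found in 0 of the 8, against 5.2% of all promoters. These are matches of letters in a window of 300 bases, not binding sites.

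The total count per library ran from 14294611 to 17448730 in the 2-month controls, from 15676749 to 18826201 in the 2-month mutants and from 18977477 to 22062341 over all 9-month libraries. The 2 times were also 2 sequencing runs, so that time and run cannot be told apart. Markers of hepatocytes were detected in every group, 7 of 7, but their summed level was lower in every mutant sample: 106400 to 131590 CPM, which is a count scaled to a common library total, in the 2-month controls, 35230 to 48848 in the 2-month mutants, 113600 to 119870 in the 9-month controls, 40179 to 43243 in tumour-free liver and 57138 to 70649 in tumours. Alb, the albumin gene, makes up most of this sum (mean 101410 CPM in the 2-month controls and 30739 CPM in mutants). Of the 7, 4 were called lower at 2 months, 3 in tumour-free liver and 2 in tumours, and 0 higher in each. Their median log2 changes were -0.37, -0.49 and -0.82, beside 0.01, -0.01 and 0.01 over all genes. The hepatocyte factor Hnf4a averaged 827 CPM in the 2-month mutants and 740 CPM in their controls, and 653 CPM in tumour-free liver, 553 CPM in tumours and 521 CPM in the 9-month controls. Of 8 markers of liver endothelium, 1 was called higher and 0 lower at 2 months, 1 higher and 3 lower in tumour-free liver, and 2 higher and 0 lower in tumours. Of 7 bile duct markers, 6 were tested in each comparison. Of these, 2 were called higher at 2 months, 1 in tumour-free liver and 2 in tumours, and 0 lower. Their median log2 changes were 0.40, 0.42 and 1.24. In this list Spp1, the osteopontin gene, reached 2693 CPM in the summed tumours of mutant 1 and 116 CPM at most in the 9-month controls. Sox9 averaged 13.4 CPM in tumours and 3.98 CPM in the 9-month controls. The duct keratins were not higher in tumours, where Krt19 averaged 0.667 CPM and Krt7 0.745 CPM, against 2.01 and 1.08 CPM in controls. Immediate early genes stood apart in the 9-month samples numbered 1, at 3202 CPM in the control, 911 CPM in tumour-free liver and 1396 CPM in tumour, against at most 164 CPM in the other 9-month samples. The part of these shifts in the results below was not tested, except that results are also given without the samples numbered 1.

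In control liver the 10 genes spanned a wide range. Per kilobase of exon, the mean level in the 2-month controls was highest for Glul, at 286 CPM per kb ± 14.5 (SD, n = 6). Notum followed at 18.4 ± 6.49, and the lowest was Lgr5 at 0.830 ± 0.183 CPM per kb. Between them lay Tbx3 (7.40), Rnf43 (6.02), Tcf7 (2.71), Axin2 (2.17), Znrf3 (1.70), Nkd1 (1.58) and Sp5 (1.27 CPM per kb). The other orders were alike: Glul, then Notum, then Tbx3 and Rnf43 led in each of the 5 groups, with Rnf43 before Tbx3 in tumours, and Sp5 was last in every mutant group (0.208, 0.107 and 0.0296 CPM per kb at 2 months, in tumour-free liver and in tumours). Glul averaged 144 CPM per kb in the 2-month mutants, 295 in the 9-month controls, 68.2 in tumour-free liver and 31.4 in tumours, where its range met that of Notum. In the 2-month controls, single animals overlapped between each pair of neighbours except from Glul to Notum, from Notum to Tbx3 and from Rnf43 to Tcf7. The plot of levels by group shows all 19 libraries.

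**Figure D1:**
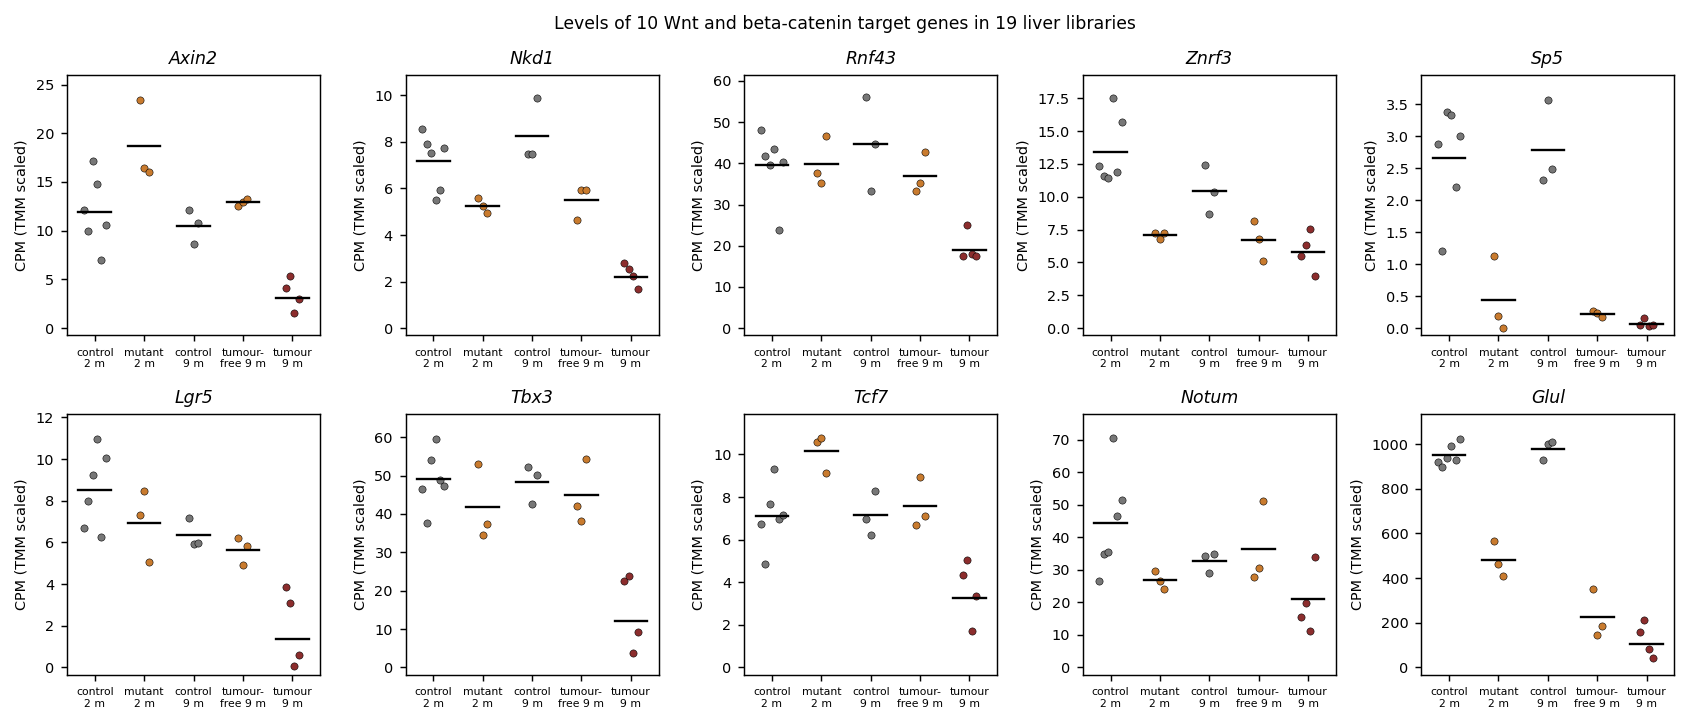
Level of each of the 10 genes in CPM after TMM scaling (vertical axis, linear) in the 5 groups; each point is a library and each bar the mean over animals, with both tumours of mutant 1 drawn. Glul lies between 898 and 1023 CPM in the 2-month controls and at 567 CPM or less in every mutant library, and Sp5 lies at 0.264 CPM or less in every 9-month mutant library.

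At 2 months the genes did not move as a group. Sp5, Znrf3 and Glul were lower in the mutants, Axin2 and Tcf7 were higher, and the other 5 did not pass the test. The test was edgeR's quasi-likelihood test with p adjusted by Benjamini-Hochberg over all genes, with a threshold of 0.05. By it 2 of 10 rose and 3 fell, 5 in all, against 22.3% of all 13773 genes tested rising and 20.4% falling, 42.7% in all. The groups did not overlap for 3 of the 10, against 38.4% of all genes. The share of the 10 called is thus near that of all genes. The median log2 change of the 10 was -0.37, beside 0.01 over all genes.

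Sp5 encodes a zinc finger transcription factor that represses other Wnt targets. It was at 1.20, 2.94 and 3.38 CPM in the lowest, median and highest 2-month control, and at 1.12, 0.189 and 0 CPM in mutants 1, 2 and 3, which is 19, 3 and 0 counts. The log2 change was -2.64 ± 0.73 (SE), with adjusted p = 0.0142 in edgeR. Every mutant lay below every control, although mutant 1 came close to the lowest control. Without mutant 2 the change was -2.32 and the adjusted p 0.0569.

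Znrf3 encodes a membrane ubiquitin ligase that removes Frizzled receptors. Its level was 11.4, 12.1 and 17.5 CPM in the lowest, median and highest control and 7.27, 6.81 and 7.22 CPM in the mutants. The groups did not overlap, and the log2 change was -0.91 ± 0.17 (edgeR adjusted p = 0.00139). Rnf43, which encodes the related ligase, was at 37.6, 35.2 and 46.7 CPM in the mutants, within the control range of 23.7 to 48.1 CPM, with a log2 change of 0.02 ± 0.19. Its sign turned without control 5, the lowest control (-0.09), and without mutant 3 (-0.11).

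Glul was at 898, 932 and 1023 CPM in the lowest, median and highest control and at 567, 465 and 408 CPM in the mutants. This is a log2 change of -0.98 ± 0.12 (edgeR adjusted p = 6.86e-05), with all mutants below all controls. In bulk tissue, fewer cells that express a gene and less of its RNA per cell cannot be told apart.

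Axin2 encodes a scaffold of the complex that destroys beta-catenin and is the most widely used readout of the pathway. It was at 7.03, 11.3 and 17.2 CPM in the lowest, median and highest control and at 23.5, 16.5 and 16.1 CPM in the mutants. Mutants 2 and 3 lay below the highest control. The log2 change was 0.65 ± 0.24 with an adjusted p of 0.0461 in edgeR, and the call was lost in 11 of 16 alternatives. Leaving out any one of mutants 1, 2 and 3 or of controls 1, 2, 5 and 6 ended it, with adjusted p up to 0.196 and a change of 0.44 without mutant 1.

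Tcf7 encodes a TCF/LEF factor. It was at 4.86, 7.04 and 9.31 CPM in the lowest, median and highest control and at 10.6, 10.8 and 9.12 CPM in the mutants, so that only mutant 3 overlapped the controls. The log2 change was 0.52 ± 0.18 (edgeR adjusted p = 0.0348), and 7 of 16 alternatives ended the call, among them leaving out mutant 1 or 2 or control 1, 5 or 6. The highest adjusted p, 0.115, came from 1 fit over all 5 groups. Tcf7 is also known as a gene of T cells, and of 9 T cell markers tested, 1 was called higher and 0 lower at 2 months. That gene, Themis, averaged 13.2 CPM in the mutants and 0.329 CPM in controls. The T cell genes Cd3e and Trbc2 averaged 0.845 and 0.778 CPM in the mutants and 0.827 and 0.801 CPM in controls. Over the 9 markers the median log2 change was 0.36, beside 0.01 over all genes. The part of T cells in the level of Tcf7 was not tested.

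The other genes that dampen the pathway were near the threshold. Nkd1, whose product binds Dishevelled, was at 5.61, 5.23 and 4.95 CPM in the mutants and 5.51 to 8.58 CPM in controls (log2 change -0.45 ± 0.17, edgeR adjusted p = 0.0557). Notum, whose secreted product removes the lipid from Wnt proteins, was at 29.7, 26.7 and 24.1 CPM in the mutants and 26.6 to 70.5 CPM in controls (-0.72 ± 0.27, adjusted p = 0.0537). DESeq2 placed both below the threshold, at adjusted p 0.0323 and 0.0195. Lgr5, a receptor for R-spondins, was at 5.05 to 8.45 CPM against 6.24 to 10.9 CPM, and Tbx3, a T-box repressor, at 34.6 to 53.1 against 37.6 to 59.6 CPM. Their log2 changes were -0.29 ± 0.22 and -0.23 ± 0.16, and the groups overlapped.

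**Figure D2:**
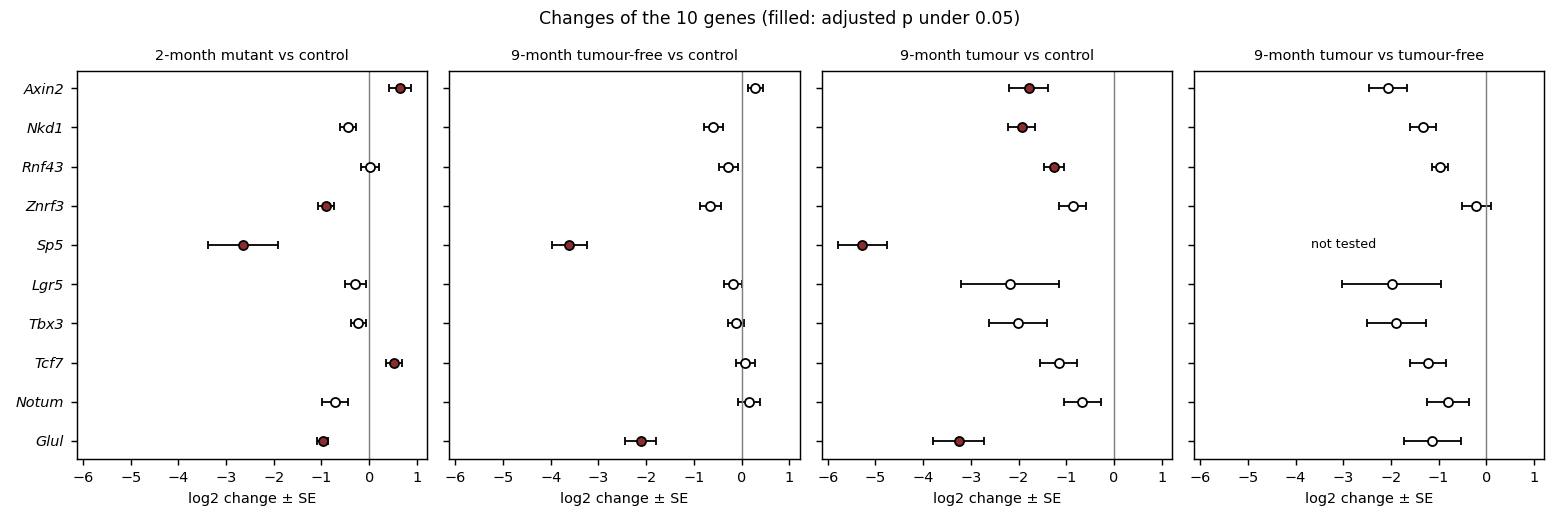
Fitted log2 change with its SE (horizontal axis) of each gene in 4 comparisons; filled points passed the adjusted threshold of 0.05 in edgeR. Filled points lie on both sides of 0 at 2 months and to the left of 0 in the 9-month comparisons with controls, and no point is filled in tumour against tumour-free liver.

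In 9-month tumour-free liver Sp5 and Glul were lower than in controls, and the other 8 genes did not pass. The calls were 0 of 10 higher and 2 lower, against 18.1% and 16.8% of the 14352 genes tested, 34.9% in all. Of the 10, 4 had an unadjusted p under 0.05, against 6446 of the 14352 genes. DESeq2 called 4 lower and limma voom 3, and 0 higher in both. Of all genes they called 2623 and 2411 lower and 2717 and 2584 higher. The median log2 change of the 10 was -0.23, beside -0.01 over all genes.

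Sp5 was at 2.32, 3.57 and 2.48 CPM in controls 1, 2 and 3 and at 0.264, 0.232 and 0.177 CPM in tumour-free liver, from 6, 6 and 4 counts. Its log2 change was -3.61 ± 0.37 (edgeR adjusted p = 0.000194), which is 12.2-fold lower. Glul was at 930, 1001 and 1012 CPM in controls and at 351, 145 and 185 CPM in tumour-free liver, with mutant 1 the highest. This was a log2 change of -2.12 ± 0.32, or 4.34-fold lower (edgeR adjusted p = 0.0014). Both genes passed in all 14 alternatives, including that without the samples numbered 1.

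Znrf3 and Nkd1 were lower in every tumour-free sample than in every control without passing. Znrf3 was at 8.17, 6.78 and 5.08 CPM against 12.4, 8.66 and 10.4 CPM (-0.65 ± 0.22, edgeR adjusted p = 0.0522). Nkd1 was at 4.66, 5.92 and 5.91 CPM against 7.47, 7.47 and 9.87 CPM (-0.59 ± 0.20, adjusted p = 0.0503). In all, the groups did not overlap for 5 of the 10 genes, against 49.2% of all genes tested.

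Axin2 was at 12.6, 12.9 and 13.3 CPM in tumour-free liver and at 12.2, 8.60 and 10.8 CPM in controls (0.29 ± 0.17, edgeR adjusted p = 0.207). The 3 tumour-free samples were close together and just above the highest control. Tcf7 (6.68 to 8.94 CPM), Lgr5 (4.92 to 6.19 CPM), Tbx3 (38.3 to 54.4 CPM), Notum (27.9 to 51.0 CPM) and Rnf43 (33.2 to 42.6 CPM) overlapped the controls, with log2 changes from -0.28 to 0.15. Scaling by library size alone moved the median of all genes to 0.43, and on that scale Lgr5, Tbx3 and Rnf43 had positive changes.

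In tumours all 10 genes had a lower mean than in 9-month controls, and Sp5, Glul, Nkd1, Axin2 and Rnf43 passed the test. The comparisons of tumours and of tumour-free liver use the same 3 controls and the same 3 mutants, so they are not independent. This is 5 of 10 lower and 0 higher, against 11.3% of 14332 genes tested falling and 13.8% rising, 25.1% in all. DESeq2 called 9 lower and 0 higher, against 2044 lower and 2415 higher of the same 14332 genes. The median log2 change of the 10 was -1.86, beside 0.01 over all genes, and the groups did not overlap for 9 of 10, against 46.1% of all genes.

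Sp5 gave 1 and 4 counts in the tumours of mutant 1 and 1 count each in those of mutants 2 and 3, against 40, 63 and 44 counts in the controls. Its log2 change was -5.27 ± 0.52 (edgeR adjusted p = 0.00121). Glul was at 159 and 211 CPM in the tumours of mutant 1, at 83.5 CPM in that of mutant 2 and at 43.4 CPM in that of mutant 3, a log2 change of -3.26 ± 0.53 from controls (adjusted p = 0.0064). In both genes every tumour lay far below every control.

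The scaffold gene Axin2, the Dishevelled inhibitor gene Nkd1 and the ligase gene Rnf43 fell in tumours. Axin2 was at 4.10 and 5.31 CPM in the tumours of mutant 1, at 1.5 CPM in mutant 2 and at 2.99 CPM in mutant 3, against 8.60 to 12.2 CPM in controls (-1.78 ± 0.41, edgeR adjusted p = 0.0206). Its adjusted p rose to 0.0706, 0.0518 and 0.073 without controls 1, 2 and 3. Nkd1 was at 2.79, 2.54, 2.23 and 1.67 CPM in the same 4 tumours (-1.93 ± 0.28, edgeR adjusted p = 0.00438). Rnf43 was at 17.5, 25.1, 17.9 and 17.5 CPM, against 33.4 to 56.1 CPM in controls (-1.26 ± 0.22, adjusted p = 0.00729). Nkd1 and Rnf43 passed in all 15 alternatives.

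Neither Znrf3 nor Notum passed in tumours. Znrf3 was at 5.49, 6.31, 7.53 and 3.99 CPM in the 4 tumours, below all controls and overlapping tumour-free liver (-0.87 ± 0.28, edgeR adjusted p = 0.0621). Notum was at 15.6 and 19.8 CPM in mutant 1, at 11.3 CPM in mutant 2 and at 34.0 CPM in mutant 3, the last within the control range of 29.1 to 34.7 CPM (-0.66 ± 0.38, adjusted p = 0.244). Without mutant 3 the change of Notum was -1.16 with adjusted p = 0.0167.

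For Lgr5, Tbx3 and Tcf7 the tumours differed by animal. Lgr5 was at 3.84 and 3.09 CPM in the tumours of mutant 1 but at 0.0769 CPM (2 counts) in that of mutant 2 and 0.615 CPM (14 counts) in that of mutant 3, against 5.94 to 7.18 CPM in controls. Tbx3 was at 22.5 and 23.9 CPM in mutant 1, 3.8 CPM in mutant 2 and 9.26 CPM in mutant 3, against 42.6 to 52.4 CPM. Tcf7 was at 4.32, 5.04, 1.69 and 3.34 CPM in the same order, against 6.22 to 8.29 CPM. All tumours were below all controls, with log2 changes of -2.18 ± 1.03, -2.01 ± 0.61 and -1.16 ± 0.39 and edgeR adjusted p of 0.167, 0.0547 and 0.0654. The highest animal exceeded the lowest 44.9-fold for Lgr5, 6.11-fold for Tbx3 and 2.78-fold for Tcf7. Glul (4.29-fold), Axin2 (3.16-fold) and Notum (3.02-fold) spread more than Tcf7. The remaining genes ran from 1.23-fold for Rnf43 to 2.7-fold for Sp5. Without mutant 1, Lgr5, Tbx3 and Tcf7 passed, with log2 changes of -4.2, -2.89 and -1.5. The tumours of mutant 1 also had the highest Spp1, as given above, whose part in this difference was not tested.

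Within each animal, 9 of the 10 genes were lower in tumour than in the tumour-free liver of all 3 mutants, and Znrf3 was lower in 2. Over all 14566 genes tested, 16.8% were lower in all 3 animals. The edgeR test compared the groups without the pairing by animal, and so its SE and p do not measure the spread of differences within animals. With it 0 of the 9 genes tested passed, and 0.0137% of all genes did. Of the 9, 5 had an unadjusted p under 0.05, against 1454 of the 14566 genes. DESeq2 called 4 of the 9 lower and 172 of all genes lower, and limma voom called 0 genes. The 1 fit over all 5 groups tested all 10 and called 5 lower, against 149 of its 15167 genes. With the animals as a block, edgeR called 0. With 3 animals an exact paired permutation test cannot go below p = 0.25. Sp5, which is among the genes lower in all 3 animals, did not pass the expression filter in this comparison. It rested on 7 counts in tumours and 16 in tumour-free liver, and the 16.8% covers only genes that passed the filter.

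Of the feedback genes, Axin2 had the largest fitted difference between tumour and tumour-free liver. It went from 12.6 to 4.74 CPM in mutant 1, from 12.9 to 1.5 CPM in mutant 2 and from 13.3 to 2.99 CPM in mutant 3. The log2 change was -2.06 ± 0.40 in the fit without pairing (edgeR adjusted p = 0.224). Rnf43 went from 33.2 to 21.5, from 35.2 to 17.9 and from 42.6 to 17.5 CPM, and Nkd1 from 4.66 to 2.66, from 5.92 to 2.23 and from 5.91 to 1.67 CPM. For these 3 genes no tumour reached the level of any tumour-free sample, and the same held for Lgr5, Tbx3 and Tcf7. In all, the groups did not overlap for 6 of the 9 genes tested, against 15.5% of all genes tested. Glul went from 351 to 186 CPM in mutant 1, from 145 to 83.5 CPM in mutant 2 and from 185 to 43.4 CPM in mutant 3, and here the tumour of mutant 1 overlapped the tumour-free samples of the others.

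**Figure D3:**
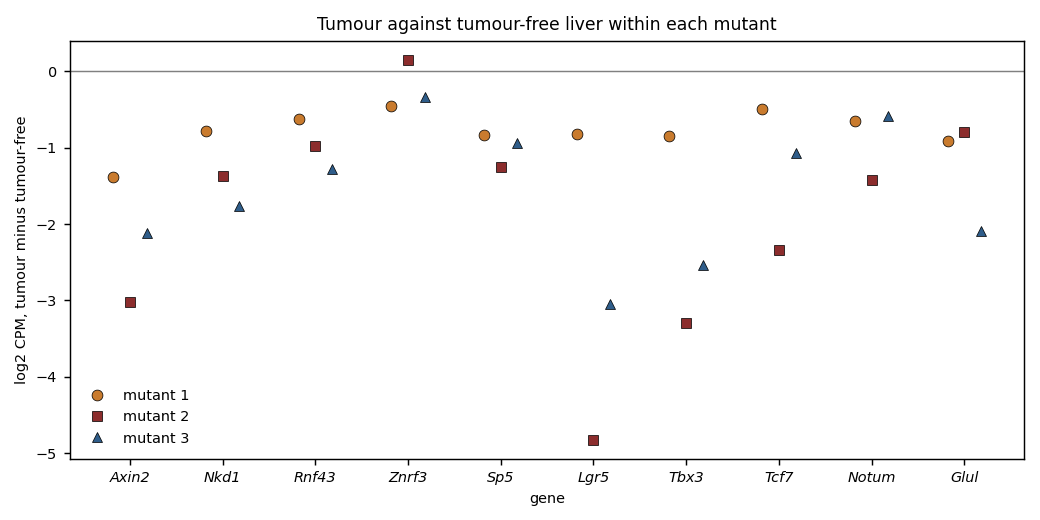
Difference in log2 CPM (prior count of 2) between tumour and tumour-free liver of the same mutant (vertical axis) for each gene; each symbol is an animal. All points lie below 0 except Znrf3 in mutant 2, and Lgr5 and Tbx3 show mutant 1 at -0.83 and -0.85 while mutants 2 and 3 lie between -2.54 and -4.82.

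No gene of the 10 passed between the controls of the 2 times. Between 9-month and 2-month controls, 0 of 10 passed in edgeR, DESeq2 and limma voom. In edgeR 7.29% of all genes were called higher and 4.64% lower, 11.9% in all. Of the 10, 0 had an unadjusted p under 0.05, against 3906 of 13545 genes. Log2 changes of the 10 ran from -0.45 for Notum to 0.18 for Nkd1. The change of the mutant effect between 2 months and 9-month tumour-free liver was tested as an interaction. Here 0 of 10 passed in edgeR and limma voom, and edgeR called 0.462% of all genes higher and 1.05% lower, 1.52% in all. Of the 10, 2 had an unadjusted p under 0.05, against 1882 of 14707 genes. DESeq2 called 534 of all genes and 1 of the 10. That 1 gene was Glul, whose log2 change was more negative at 9 months by a difference of -1.13 ± 0.30 (edgeR adjusted p = 0.082). Without the tumour-free sample of mutant 1 the difference was -1.55, with adjusted p = 0.000941.

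Upstream of these targets, of 19 Wnt ligands 6 were abundant enough to test, with 2 called higher at 2 months, 2 in tumour-free liver and 1 in tumours, and 0 lower. For this and the lists below, the shares of all genes called were 22.3% higher and 20.4% lower at 2 months. They were 18.1% and 16.8% in tumour-free liver, and 13.8% and 11.3% in tumours. Wnt5a, a ligand best known for signalling without beta-catenin, rose in all 3 comparisons with controls. Its mean was 1.54 CPM in the 2-month controls and 3.68 in mutants, and 1.69 CPM in the 9-month controls, 4.98 in tumour-free liver and 4.65 in tumours, with log2 changes of 1.26, 1.55 and 1.43 (edgeR adjusted p = 0.0112, 0.000868 and 0.0375). The 2-month call was lost without mutant 1 (adjusted p = 0.0604), and the tumour call without any 1 of the controls or mutant 3 (adjusted p up to 0.125). Wnt5b at 2 months (0.70, adjusted p = 0.0477) and Wnt4 in tumour-free liver (1.19, adjusted p = 0.0463) were the only other ligands called. The Wnt4 call was lost without any 1 of controls 1 and 3 or mutants 2 and 3 (adjusted p up to 0.146), and the Wnt5b call without any 1 of mutants 1 and 2 or controls 1, 4, 5 and 6 (adjusted p up to 0.268).

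The endothelial ligands Wnt2 and Wnt9b and the R-spondin Rspo3 did not pass in any of these comparisons. In tumours Wnt2 averaged 0.521 CPM against 2.48 CPM in controls, Wnt9b 0.322 against 1.54 CPM and Rspo3 2.84 against 5.96 CPM. Their log2 changes were -2.22 ± 0.80, -2.17 ± 0.73 and -1.08 ± 0.48, with edgeR adjusted p of 0.0833, 0.067 and 0.14, and without mutant 1 all 3 passed (adjusted p = 0.0434, 0.0222 and 0.0304). The averages of endothelial markers in tumours lay on both sides of those in controls. Clec4g and Stab2, genes of sinusoidal endothelium, averaged 18.7 and 25.7 CPM against 61.6 and 43.9 CPM in controls, with the lowest tumours at 1.58 and 4.84 CPM, and did not pass (edgeR adjusted p = 0.202 and 0.454). The general endothelial genes Pecam1 and Cdh5 rose, from 17.9 and 25.2 CPM to 48.8 and 61.3 CPM. Of the rest of the list, Lyve1, Thbd and Cdh13 averaged 25.7, 13.2 and 7.65 CPM in tumours, against 5.50, 4.54 and 4.00 CPM in controls. Lyve1 ran from 2.92 to 52.4 CPM in tumours. Kdr averaged 35.9 CPM in tumours and 36.4 CPM in controls. The part of endothelial cells in the levels of Wnt2, Wnt9b and Rspo3 was not tested. Wls, which carries Wnt proteins to the cell surface, rose at 2 months (0.79, adjusted p = 0.0151) and in tumours (1.6, adjusted p = 0.0333). The first call was lost without mutant 3 (adjusted p = 0.115), and the tumour call without any 1 of the controls or mutants 1 and 2 (adjusted p up to 0.114).

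Among 19 receptors and co-receptors, 13 were tested at 2 months, with 2 called higher and 1 lower. In tumour-free liver 3 of 13 were higher and 3 lower, and in tumours 1 of 12 was higher and 2 lower. Fzd7, a Frizzled receptor, fell in all 3, by 1.42, 1.3 and 0.98 on the log2 scale (edgeR adjusted p = 0.000368, 0.000546 and 0.012). Kremen1, a receptor for Dkk inhibitors, rose by 0.89, 1.07 and 0.85. In tumours the Kremen1 call was lost without any 1 of the controls and the Fzd7 call without control 3 (adjusted p up to 0.0815 and 0.059). Fzd10 had 0 counts in every control at both times and means of 1.37 CPM in 2-month mutants, 2.75 CPM in tumour-free liver and 0.461 CPM in tumours. The tumour level was not tested. Against a floor of 3 counts over the control group, it was at least 37.6-fold, 48.2-fold and 8.1-fold higher.

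Of 15 secreted and membrane inhibitors, only 4 passed the filter in each comparison, with 2, 3 and 2 called higher at 2 months, in tumour-free liver and in tumours, and 0 lower. Dkk3, of the Dickkopf family, rose by 1.55, 1.32 and 1.54 on the log2 scale, and Frzb, a secreted Frizzled-like protein that binds Wnts, by 1.07, 1.45 and 2.23. The Frzb calls were lost without mutant 3 at 2 months (adjusted p = 0.144) and without control 3 or mutant 3 in tumour-free liver (0.0596 and 0.0527). The tumour call of Dkk3 was lost without control 1 or 2 or mutant 1 or 2 (adjusted p up to 0.101). In tumour-free liver Apcdd1, a membrane inhibitor, averaged 2.94 CPM against 0.152 CPM in controls (4.21 ± 0.41, edgeR adjusted p = 0.000153). Summed stellate cell markers were also higher, at 192 to 283 CPM in 2-month mutants and 248 to 405 CPM in the 9-month mutant samples, against 109 to 173 CPM in all controls, with 3 of 7 called higher at 2 months, 4 in tumour-free liver and 2 in tumours, and their part in these rises was not tested.

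Ctnnb1, the gene of beta-catenin itself, rose at 2 months from 268 to 385 CPM (0.53 ± 0.09, edgeR adjusted p = 0.000984) and in tumour-free liver from 229 to 369 CPM (0.68 ± 0.21, adjusted p = 0.0377). Tumours averaged 372 CPM (0.68 ± 0.24, adjusted p = 0.0757). The tumour-free call was lost without control 2 or 3 or without mutant 1 or 2 (adjusted p up to 0.119). Of the 17 cytoplasmic genes tested in each comparison, 5, 4 and 1 were called higher and 0, 1 and 0 lower.

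Among nuclear factors, the TCF factor genes Tcf7l1 and Tcf7l2 fell at 2 months by 0.60 and 0.63 on the log2 scale. The Tcf7l1 call was lost in 3 of 16 alternatives (adjusted p up to 0.0954), with a change of -0.32 under scaling by library size alone. The Groucho-type co-repressors moved apart: Tle2 fell by 1.61, 1.25 and 1.82 on the log2 scale in the 3 comparisons, while Tle3 rose by 0.73, 0.73 and 0.78. In tumours both calls were lost without any 1 of the controls (adjusted p up to 0.0889 for Tle2 and 0.142 for Tle3), and that of Tle3 also without mutant 1 or 3. In all, 2 of 12 nuclear factors were higher and 5 lower at 2 months, 2 of 13 and 3 of 13 in tumour-free liver, and 1 of 13 and 2 of 13 in tumours.

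Other genes often listed as Wnt targets moved in both directions. Of 10 tested at 2 months, 2 rose and 2 fell, and of 12 tested in each 9-month comparison, 4 and 3 rose and 2 and 1 fell. Ccnd1, the gene of cyclin D1, rose by 2.30 at 2 months, by 0.78 in tumour-free liver and by 2.15 in tumours (log2, edgeR adjusted p = 6.75e-05, 0.00596 and 0.0295). Cd44, a cell surface receptor for hyaluronan, rose by 1.63, 1.65 and 2.15. Tnfrsf19, a receptor of the TNF family, fell from 14.6 CPM in the 9-month controls to 1.75 CPM in tumour-free liver and 1.63 CPM in tumours (-3.07 and -3.15). In tumours the call for Ccnd1 was lost without any 1 of the controls (adjusted p up to 0.112). The tumour call of Tnfrsf19 was lost without control 2 or 3 (0.052 and 0.0562). Sox9, a transcription factor gene of bile duct cells, was called higher in tumours (1.73, adjusted p = 0.0146), but not without control 2 or 3 (0.0633 and 0.0691). Of the 6 bile duct markers tested in tumours, Sox9 among them, 2 were called higher and 0 lower. The duct keratins Krt19 and Krt7 were not higher there, as given above.

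Pericentral genes other than Glul were also lower. Of 13 tested, 8 fell and 2 rose at 2 months, 9 fell and 3 rose in tumour-free liver, and 8 fell and 1 rose in tumours, with median log2 changes of -0.72, -1.42 and -3.21. Of 10 periportal genes, 4 fell and 1 rose, 3 fell and 1 rose, and 2 fell and 1 rose, with medians of -0.41, -0.70 and -0.93. Over all genes the medians were 0.01, -0.01 and 0.01. Oat, ornithine aminotransferase, averaged 1102 CPM in the 2-month controls and 302 CPM in mutants, and 1339 CPM in the 9-month controls, 108 CPM in tumour-free liver and 33.8 CPM in tumours. Rgn, regucalcin, fell by 2.49, 3.41 and 5.41 on the log2 scale, and Nr1i3, the nuclear receptor CAR, by 2.90, 3.54 and 4.54.

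The pericentral genes did not all fall. Slc1a4, an amino acid transporter, rose by 1.93, 2.75 and 1.66 on the log2 scale, and Rhbg, an ammonium transporter, by 1.97 and 1.63 at 2 months and in tumour-free liver. The tumour call of Slc1a4 was lost without any 1 of the controls (adjusted p up to 0.0914). Rhbg averaged 2.33 CPM in tumours and 4.19 CPM in controls, with adjusted p = 0.605. Cyp1a2 was at 855 CPM in the 2-month controls and 1127 CPM in mutants (0.41, edgeR adjusted p = 0.0771), and was called higher in tumour-free liver (0.59, adjusted p = 0.048). That call was lost without any 1 of the 6 samples except mutant 2. The 1 periportal gene that rose was Cdh1, the gene of E-cadherin, by 2.06, 5.31 and 5.73. Its mean was 249 CPM in the 2-month mutants, 216 CPM in tumour-free liver and 292 CPM in tumours, while that of the controls was 60.0 CPM at 2 months and 5.41 CPM at 9 months. Alb averaged lower in every mutant group than in its controls (53194 CPM in tumours and 92367 CPM in the 9-month controls) and Hnf4a did not, as given above, and the part of hepatocyte content in these falls was not tested.

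**Figure D4:**
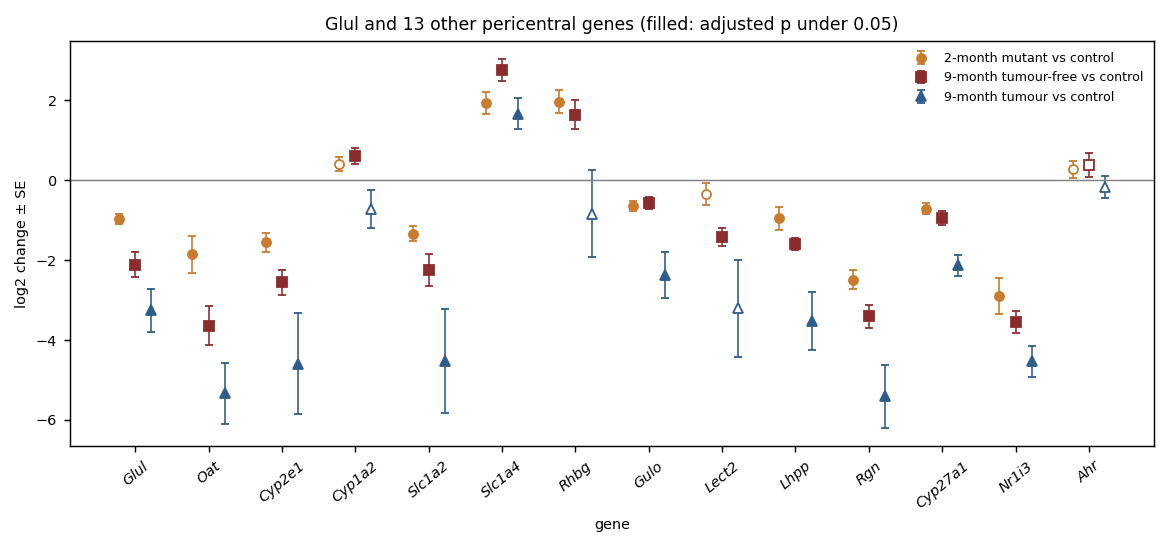
Fitted log2 change with its SE (vertical axis) of Glul and 13 other pericentral genes in the 3 comparisons with controls; filled symbols passed the adjusted threshold of 0.05 in edgeR. Most symbols lie below 0, those of Rgn reaching -5.41 in tumours, while Slc1a4 lies above 0 in all 3.

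Tbx3 and Notum have neighbours transcribed from the other strand, and, although the kit marks strand, the strand setting of the counting is not known from the sources at hand. Reads of such pairs could thus have been split or shared. Tbx3os1, a long non-coding RNA chosen for description after its values were seen, overlaps Tbx3 by 697 bases on chromosome 5. It was at 0.441 to 1.12 CPM in the 2-month mutants, from 19, 7 and 12 counts, and at 15.6 to 21.4 CPM in their controls. At 9 months it was at 8.80 to 15.0 CPM in controls, 0.620 to 1.81 CPM in tumour-free liver and 0.0384 to 0.353 CPM in tumours. No mutant sample reached any control. Its log2 changes were -4.68 ± 0.26 at 2 months, -3.31 ± 0.39 in tumour-free liver and -5.71 ± 0.59 in tumours (edgeR adjusted p = 1.82e-07, 0.000396 and 0.00144), while Tbx3 itself changed by -0.23, -0.11 and -2.01. Notumos, which overlaps Notum by 2019 bases, stayed at 3.71 CPM or less in all samples and did not pass in these comparisons.

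The genes most like each of the 10 were listed by Pearson correlation of log2 CPM over 18 samples, which share groups and depth, as a description. For Axin2 the closest was Tcf7 (r = 0.938) and for Lgr5 it was Tbx3 (r = 0.968). Tbx3 was next followed by Nr1h5 (0.957) and Rspo3 (0.955). Glul ran closest to Pigr (0.987), Oat (0.978) and Rgn (0.976), and Sp5 to Apoh (0.973). Rnf43 and Notum had no gene above 0.84 and 0.814, Nkd1 and Id3 respectively.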

How the data were processed

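Poly(A) RNA was read from strand-marking libraries, per the labels' protocols. The authors deposited raw counts, whole numbers per gene and library, used here unchanged. The submitters' processing notes name GRCm38 and, without roles, DESeq2 1.22.2, bedtools 2.27.1, RSEM and STAR 2.6.1a, so these may be rounded estimates. For each comparison its groups alone entered edgeR 4.0.16 (R 4.3.3) with the expression filter, TMM scaling, robust dispersions and the quasi-likelihood test, adjusted by Benjamini-Hochberg over all genes tested. Levels are CPM on 1 TMM scale over all libraries, with exon lengths from GENCODE M21. The test was also run on simulated data, without the interaction and with changes set only in genes of higher counts. Its outcome is not given here, and it does not cover low-count genes such as Sp5. The 10 genes, the pathway and marker lists and the rule for list genes (the strongest calls per direction and list, and a few set by name) were chosen with earlier results of these data known. Alternatives were DESeq2 1.42.0, limma 3.58.1 voom, other scalings, no filter, 1 fit over all groups, a replicate block and leaving out samples. Tumour and tumour-free liver came from the same animals, which pairs them (correlation of deviations across genes 0.00422 to 0.294); the block changed no call of the 10 there. P-values measure the spread between these animals, and floors cover counting error only.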

Additional observations from a re-analysis of the deposited data

Results flagged for a closer look

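Rnf43 was at 23.7 CPM in 2-month control 5, far below the other 5 controls of its group, whose lowest was 39.6 CPM. The gap exceeded the limit of Dixon's test for 6 samples, which chance passes in about 1 of 20 groups. Without this control the log2 change of Rnf43 at 2 months was -0.09, beside 0.02 with it, and it did not pass the test either way.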

How the results depend on the processing

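Depth limits Sp5, Lgr5 and the rarer ligands, which rest on few counts in tumours. Of the calls among the 10 genes, those of Znrf3 and Glul at 2 months, of Sp5 and Glul in tumour-free liver and of Sp5, Glul, Nkd1 and Rnf43 in tumours held in each alternative run; the calls of Axin2 and Tcf7 at 2 months were the least stable. The cause of each change below was not tested.

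The number of the 10 genes called at 2 months was 5, and became 3 with 1 fit over all 5 groups and 2 with the replicate block. In tumour-free liver it was 2, and became 4 with DESeq2, with 1 fit over all 5 groups and with the block. In tumours it was 5, and became 9 with DESeq2 and with 1 fit over all 5 groups. Between tumour and tumour-free liver it was 0, and became 4 with DESeq2 and 5 with 1 fit over all 5 groups. In the interaction it was 0, and became 1 with DESeq2 and 1 without the 9-month samples numbered 1. Leaving out 1 sample gave 2 to 6 genes at 2 months, 2 to 3 in tumour-free liver, 4 to 8 in tumours, 0 between tumour and tumour-free liver and between controls, and 0 to 1 in the interaction.

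Over all genes, 5883 were called at 2 months and 3290 with the replicate block. In tumours 3593 were called, 5482 with scaling by library size alone, 6612 with 1 fit over all 5 groups and 1743 without the samples numbered 1. Between tumour and tumour-free liver 2 genes were called, 442 with DESeq2, 0 with limma voom, 47 with no expression filter, 380 with 1 fit over all 5 groups, 1 with the block and 0 without the samples numbered 1. Between controls 1616 were called, 1056 with 1 fit over all 5 groups and 384 with the block. The interaction gave 223, 534 with DESeq2, 54 with 1 fit over all 5 groups and 92 with the block. Leaving out 1 sample gave 4324 to 5832 genes at 2 months, 3351 to 4870 in tumour-free liver, 1419 to 3566 in tumours, 0 to 63 between tumour and tumour-free liver, 797 to 1899 between controls and 110 to 293 in the interaction.

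Scaling by library size alone moved the median of all genes to 0.29 at 2 months, 0.43 in tumour-free liver and 0.47 in tumours, and the share of calls that were higher from 52.1% to 77.7%, from 51.9% to 82.9% and from 54.9% to 85.1%. In the interaction that share went from 30.5% to 51.4%. On that scale the log2 change turned for Tbx3 (0.046) and Rspo3 (0.15) at 2 months, for Rnf43 (0.17), Lgr5 (0.26), Tbx3 (0.33) and Wnt9b (0.062) in tumour-free liver and for Nkd1 (0.017) in the interaction, and Axin2 in tumour-free liver was called higher (0.73, edgeR adjusted p = 0.00779).

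None of these turned values passed the test. With the replicate block, Rnf43 at 2 months was -0.10, Tbx3, Tcf7 and Notum between controls were 0.075, 0.16 and 0.017, and Nkd1 in the interaction was 0.012. With limma voom Tcf7 between controls was 0.015 and Sp5 in the interaction 0.44, and with 1 fit over all 5 groups Tcf7 between controls was 0.0067. Without the samples numbered 1, Rnf43 and Tcf7 between controls were -0.031 and 0.018, and Rnf43 in the interaction was 0.025.

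Leaving out 1 sample, log2 changes that turned ran at 2 months from -0.11 to 0.10 for Rnf43, from -0.084 to 0.46 for Wnt2, from -0.72 to 0.094 for Wnt9b and from -0.24 to 0.030 for Rspo3. In tumour-free liver they ran from -0.25 to 0.011 for Tbx3, from -0.038 to 0.19 for Tcf7 and from -0.15 to 0.32 for Notum. Between controls they ran from -0.031 to 0.33 for Rnf43, from -0.17 to 0.17 for Sp5, from -0.094 to 0.050 for Tbx3 and from -0.12 to 0.094 for Tcf7. In the interaction they ran from -0.21 to 0.0056 for Nkd1, from -1.56 to 1.34 for Sp5 and from -0.032 to 0.31 for Lgr5.

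Sample numbers pair only tumour and tumour-free liver. Elsewhere same-numbered samples share only a number (correlations of deviations from -0.263 to 0.344), and the block also ended the 2-month call of Sp5 (edgeR adjusted p = 0.081).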
